A study of Mus musculus with 6 samples.

Results

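The solute carriers (gene symbols beginning Slc and a family number) are the membrane proteins that move nutrients, ions, metabolites and vitamins across the cell surface and the membranes of organelles. Open chromatin regions (peaks) of ATAC-seq were taken as solute carrier peaks where the gene column of the authors' deposited table begins with Slc followed by a digit. This gave 986 of 70494 peaks, assigned to 313 of 26796 genes. The rule uses names only, so it also takes in 6 genes that carry the symbol but are not transporters, with 15 peaks. No measured value enters the rule, which was chosen with earlier results of these data known.

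Solute carriers work as uniporters, which let a solute run down its gradient, as cotransporters, which couple it to an ion such as sodium or protons, or as exchangers. Mitochondrial carriers of family 25 link the matrix to the cytosol, while families 30 and 39 move zinc and members of family 35 carry nucleotide sugars into the Golgi. Endoderm gives rise to gut, liver, pancreas and lung, whose later absorptive and secretory work depends on many of these proteins. OTX2 is a homeodomain transcription factor of the anterior epiblast, anterior endoderm and head neuroectoderm, and binds bicoid-type sites around TAATCC, which reads GGATTA on the opposite strand.

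The cells were definitive endoderm derived from mouse epiblast stem cells of the line 7H, a BL6/129 hybrid in which OTX2 carries a dTAG degron and EGFP. All 6 libraries share this allele, and only 1 line was used. The DMSO group (3 libraries) received solvent, and the dTAG13 group (3 libraries) received the degrader that directs the tagged protein to proteolysis, in each case for 24 h from the primitive streak stage. Both groups had 16 h of 40 ng/ml Activin A with 3 uM CHIR and then 24 h of 100 ng/ml Activin A with 100 nM LDN, and 50000 sorted live cells entered each library. By the submitters' design text these are technical replicates. Whether they came from separate cultures is not stated, so the p-values measure the spread between these libraries, which may be technical. The fusion protein itself is not measured by accessibility, so its loss cannot be checked here.

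Each peak has in the authors' deposited table a mean normalized read count over the 6 libraries, a log2 fold change of dTAG13 over DMSO, a standard error (SE) and an adjusted p. A negative fold change means less signal in dTAG13. Values per library were not used here, and depth per library is unknown. The group levels given below are implied levels, computed from the mean count and the fold change of each peak. A level under 3 normalized counts per library was treated as too low for a fold change. The change is then given as at least the fold between the implied level of the other group and 3 counts. Wherever a change is given below in this way, the bound concerns the low level only and leaves out the SE. With the SE counted, the change may be smaller than the fold given. Peaks with an adjusted p under 0.05 are called lower or higher. A fold change in bulk cells cannot tell fewer cells with an open region from less opening per cell. Of the genes listed here for definitive endoderm, which also include Epcam and Cdh1, 10 of 10 had a peak within 1000 bases of a start site. Among them were Sox17, Foxa2 and Cxcr4. A promoter peak was also present at 3 of 5 pluripotent or epiblast, 4 of 5 mesoderm, 2 of 3 neural and 1 of 3 visceral endoderm genes. Pou5f1, Nanog, Mesp1, Six3, Afp and Ttr had none. A peak at a promoter is not expression, so the makeup of the cultures was not tested.

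The sequences below are the 200 bases around the midpoints of the called peaks that the account turns on (mm10, plus strand, 5′ to 3′). The first 6 were lower in dTAG13 and hold the OTX consensus, shown in capitals as GGATTA or, for the opposite strand, TAATCC. Slc25a12 encodes the mitochondrial aspartate-glutamate carrier, Slc45a3 a sugar transporter, Slc25a10 the mitochondrial dicarboxylate carrier, Slc36a3 a member of the proton-coupled amino acid transporters and Slc12a7 a potassium-chloride cotransporter. Slc25a10, Slc36a3 and Slc12a7 are outside the rule for named genes and were chosen after their values were seen.
Slc25a12, chr2:71290161-71290360: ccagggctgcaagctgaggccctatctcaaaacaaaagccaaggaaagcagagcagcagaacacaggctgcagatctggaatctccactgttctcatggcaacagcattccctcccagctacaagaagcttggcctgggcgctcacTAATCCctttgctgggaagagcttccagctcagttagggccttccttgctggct
Slc25a12, chr2:71360709-71360908: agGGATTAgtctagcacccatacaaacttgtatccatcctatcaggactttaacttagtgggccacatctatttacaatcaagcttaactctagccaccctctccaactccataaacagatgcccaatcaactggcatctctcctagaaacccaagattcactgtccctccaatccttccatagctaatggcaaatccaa
Slc45a3, chr1:131971247-131971446: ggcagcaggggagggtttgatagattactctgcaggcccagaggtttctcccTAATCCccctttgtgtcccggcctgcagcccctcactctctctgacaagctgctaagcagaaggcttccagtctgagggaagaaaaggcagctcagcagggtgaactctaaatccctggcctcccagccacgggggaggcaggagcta
Slc25a10, chr11:120510415-120510614: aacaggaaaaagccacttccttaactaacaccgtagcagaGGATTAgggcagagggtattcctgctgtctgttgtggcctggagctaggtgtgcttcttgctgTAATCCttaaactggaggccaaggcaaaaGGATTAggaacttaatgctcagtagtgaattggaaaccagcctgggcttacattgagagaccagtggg
Slc36a3, chr11:55147350-55147549: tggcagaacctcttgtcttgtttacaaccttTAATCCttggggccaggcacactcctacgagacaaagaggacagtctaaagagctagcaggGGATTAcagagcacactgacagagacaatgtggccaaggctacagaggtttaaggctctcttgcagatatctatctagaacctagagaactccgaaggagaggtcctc
Slc12a7, chr13:73773663-73773862: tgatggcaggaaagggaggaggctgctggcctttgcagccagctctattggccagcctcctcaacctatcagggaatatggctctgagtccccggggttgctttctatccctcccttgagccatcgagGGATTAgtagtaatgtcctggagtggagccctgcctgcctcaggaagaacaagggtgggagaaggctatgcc
The window of Slc25a10 holds 3 matches and that of Slc36a3 holds 2, and the others hold 1 each. A window can reach beyond its called peak, as at Slc36a3, whose peak is 94 bases long. These windows do not stand for all lower peaks, of which 17 of 46 held a match.

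For contrast, the lower peak with the smallest p, assigned to Slc24a5, holds no match in its window. Slc24a5 encodes a potassium-dependent sodium-calcium exchanger of pigment cells.
Slc24a5, chr2:124919350-124919549: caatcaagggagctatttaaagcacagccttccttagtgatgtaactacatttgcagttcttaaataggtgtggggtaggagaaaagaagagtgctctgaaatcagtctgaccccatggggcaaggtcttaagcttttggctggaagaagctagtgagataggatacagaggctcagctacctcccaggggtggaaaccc
The last 2 windows were higher in dTAG13 and hold no OTX match. Their capitals mark the TEAD consensus GGAATG, or CATTCC for the opposite strand. It occurs 2 times at Slc15a1, the intestinal peptide transporter, and once at Slc40a1, the iron exporter ferroportin. They belong to the only 2 of the 8 higher peaks with a TEAD match. The first Slc25a12 window above, from a peak lower in dTAG13, also holds 1 TEAD match, which is not capitalized there.
Slc15a1, chr14:121492152-121492351: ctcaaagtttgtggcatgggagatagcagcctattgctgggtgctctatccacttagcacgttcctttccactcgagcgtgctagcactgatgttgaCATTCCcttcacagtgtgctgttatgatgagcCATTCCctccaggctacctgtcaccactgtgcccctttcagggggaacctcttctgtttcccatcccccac
Slc40a1, chr1:45925894-45926093: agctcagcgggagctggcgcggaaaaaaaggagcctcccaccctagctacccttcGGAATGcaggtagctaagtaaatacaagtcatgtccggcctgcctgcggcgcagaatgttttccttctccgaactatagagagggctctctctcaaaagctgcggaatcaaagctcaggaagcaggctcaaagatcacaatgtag

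Most solute carrier peaks did not pass the threshold, and those that did were mostly lower in dTAG13. Of the 973 solute carrier peaks to which the authors' deposited table gives an adjusted p, 46 were called lower, or 4.73% (95% Wilson interval 3.56 to 6.25, counting error only), beside 3.79% of all peaks. Another 8 were called higher, or 0.822% (0.417 to 1.61), beside 1.47% of all peaks. In either direction the share was 5.55%, against a background of 5.26%, so solute carrier peaks were called about as often as peaks in general. Lower peaks made up 85.2% of the solute carrier calls (73.4 to 92.3) and 72.1% of all calls. Before adjustment, 188 solute carrier peaks had a p under 0.05 in the authors' deposited table, 131 with negative and 57 with positive fold changes.

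The split between directions depended on where the fold change of 0 was placed. With the median of all peaks (-0.18) taken as 0, 35 solute carrier peaks were lower and 18 higher, so that 66% of the calls were lower (51.2% for all peaks). With 0 at the median of peaks listed in both conditions (0.09), the numbers were 54 and 8 (87.1% lower, 80% for all peaks). With the median within each decile of GC content taken as 0, they were 26 and 16 (61.9% lower, 38% for all peaks). Under each of these zero points more solute carrier peaks were lower than higher, whereas over all peaks the GC centring turned the majority. The median log2 fold change of the solute carrier peaks was -0.25 (quartiles -0.97 and 0.33), beside -0.18 for all peaks, and stayed negative under the other zero points (-0.07, -0.34 and -0.07). Weak peaks carried it. The median was -0.85 under 5 normalized counts, -0.14 from 10 to 20 and 0.03 from 40 counts on, beside -0.92, -0.05 and 0.11 for all peaks at those levels. Over all solute carrier peaks with at least 10 counts it was -0.03, beside 0.02 for all such peaks.

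**Figure D1:**
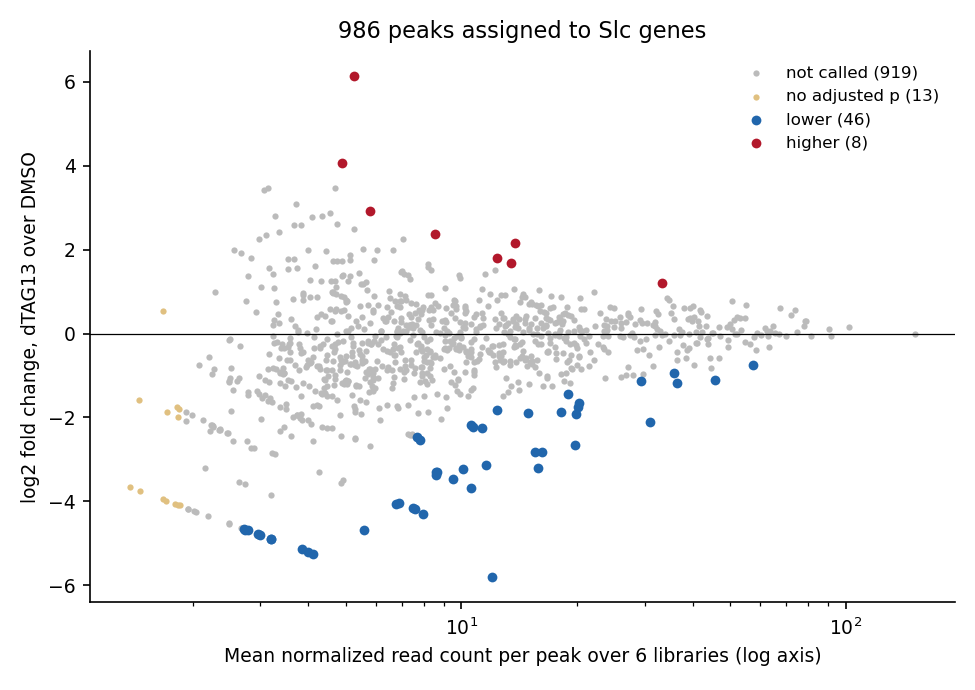
Log2 fold change of dTAG13 over DMSO (vertical axis) against the mean normalized read count over 6 libraries (horizontal log axis) for the 986 solute carrier peaks, 1 point per peak, with 46 called lower in blue, 8 called higher in red and 13 without an adjusted p in tan. Peaks with the highest counts lie near 0, and the diagonal row of points at the lower left holds peaks with almost no reads in dTAG13.

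By gene, 39 of the 313 solute carrier genes (12.5%) had a lower peak, beside 8.35% of all genes, and 7 (2.24%) had a higher peak, beside 3.59% of all genes. Slc9a9 had 1 of each, which leaves 45 genes with a called peak and 268 with none. Solute carrier genes had more peaks in which a call could fall, a mean of 3.15 per gene against 2.63 over all genes, although the median was 2 in both sets, and the number of peaks per solute carrier gene ranged from 1 to 15. The gene with 15 peaks, Slc24a3, a sodium-calcium exchanger named after its values were seen, had no called peak.

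The called peaks were weak to moderate in signal. The 46 lower peaks had a median of 10.3 normalized counts, and the 986 peaks together had a median of 7.97 (quartiles 4.71 and 15.9, range 1.37 to 152). Their log2 fold changes had a median of -3.22 and ran from -5.81 to -0.75. In 26 of them (56.5%, beside 62.6% of all lower peaks) the implied dTAG13 level was under 3 counts. With such levels set to 3 counts the median was -2.0, beside -1.90 for all lower peaks. The 8 higher peaks had a median log2 fold change of 2.26 (1.21 to 6.14), or 1.78 with the floor, which applied to the DMSO level of 4 of them. For all higher peaks the floor applied to 39.7%, and the median with it was 1.60. Lower calls were most frequent at middle levels. There, 16 of 228 solute carrier peaks with 10 to 20 counts were lower (7.02%), against 2 of 67 with 40 counts or more (2.99%). Over all peaks of the table the shares at those levels were 5.39% and 1.07%.

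Just inside the threshold lay a peak of Slc1a2, a glial glutamate transporter, for which the authors' deposited table gives 0.049995. Just outside lay peaks of its relative Slc1a3 (0.0503) and of the zinc transporter gene Slc39a2 (0.0506) in that table.

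**Figure D2:**
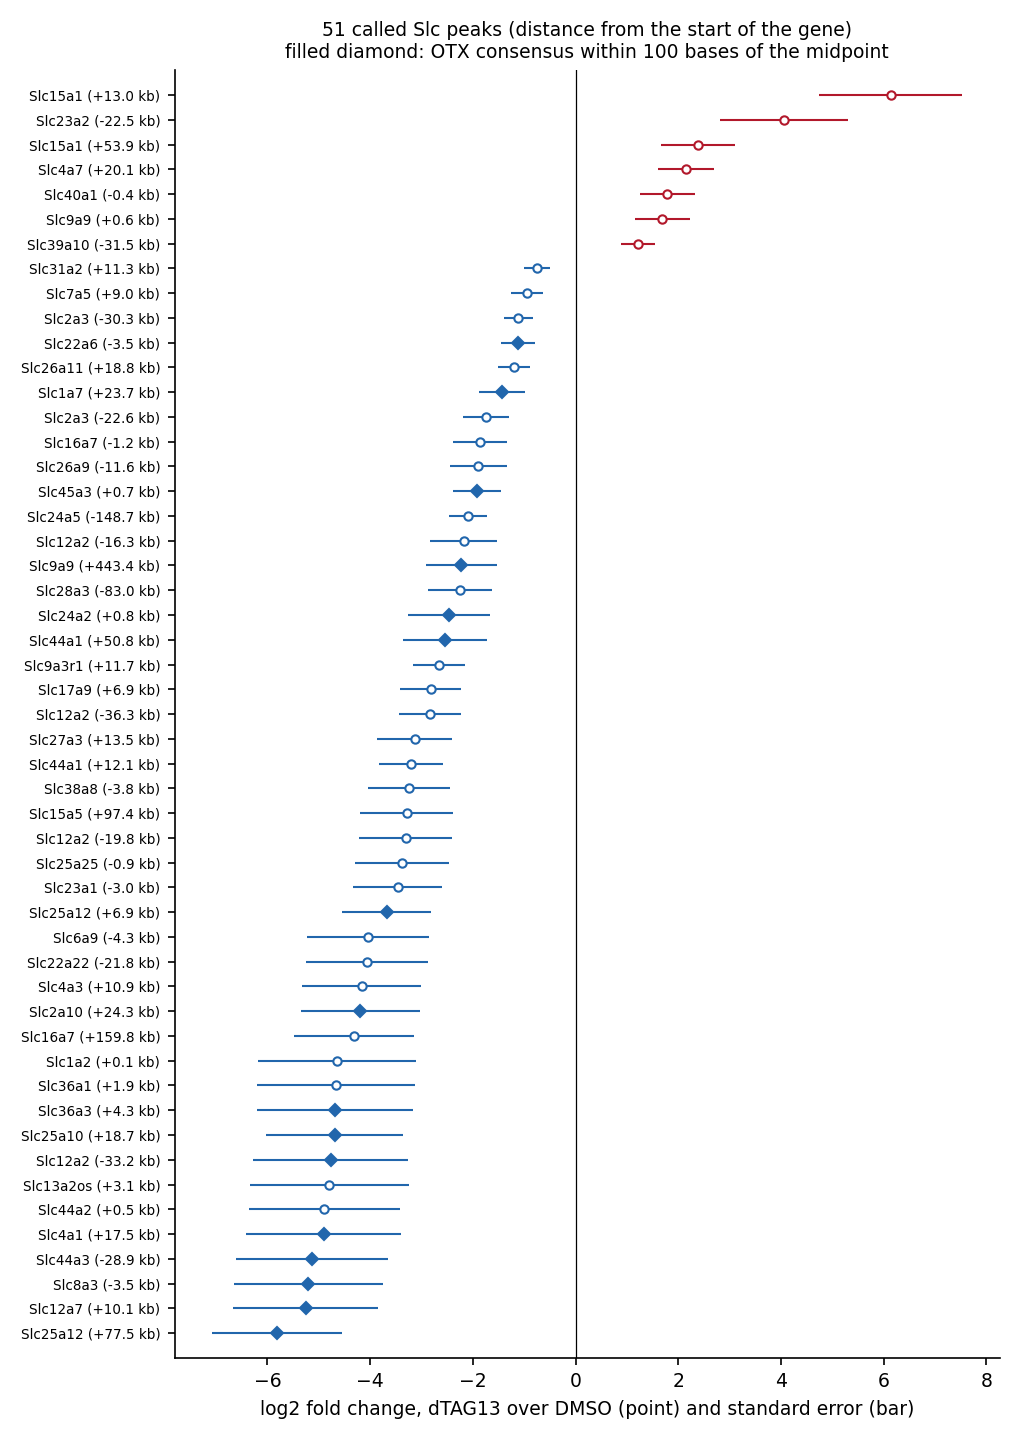
Log2 fold change of dTAG13 over DMSO (point) with its SE (bar) for 51 of the 54 called solute carrier peaks, 44 lower and 7 higher, labelled by gene and distance of the midpoint from the nearest start of that gene. Filled diamonds are the 16 plotted peaks with the OTX consensus, all of them lower.

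Among transporters of inorganic ions, 14 of 206 tested peaks (6.8%) were lower and 2 were higher. Over all peaks 3.79% were lower and 1.47% higher, which is the background for each class below. Transporters were put into classes by family number alone, so the solute of a single member may differ from the name of its class. The distal Slc24a5 peak (chr2:124919214-124919686, 473 bases, 148674 bases upstream of the gene) had implied levels of 50.2 normalized counts in DMSO and 11.7 in dTAG13. The authors' deposited table gives -2.10 on the log2 scale (SE 0.37, adjusted p = 1.86e-05), the smallest p of the solute carrier set. It was on the peak lists of both groups.

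Slc12a2 encodes NKCC1, the sodium-potassium-chloride cotransporter that loads epithelial cells with chloride, and had the most called peaks of any solute carrier gene, 4 of 12. All 4 were lower and lay within 19985 bases of each other upstream of the gene, on chromosome 18. The peak 36292 bases upstream had implied levels of 28.5 and 4 counts in DMSO and dTAG13. The authors' deposited table gives -2.83 on the log2 scale (SE 0.60, adjusted p = 0.000645). The peak 19808 bases upstream had levels of 15.6 in DMSO and 1.58 in dTAG13, at least 5.21-fold lower (adjusted p = 0.012 from the authors' deposited table). At 16307 bases upstream the levels were 17.4 and 3.84, or -2.18 on the log2 scale (SE 0.66, adjusted p = 0.0282 from the authors' deposited table). The weakest, 33234 bases upstream, had 5.69 counts in DMSO and was at least 1.9-fold lower (adjusted p = 0.0359 from the authors' deposited table). These 3 weaker calls were lost when the authors' deposited fold changes were centred within GC deciles and their p recomputed (adjusted p = 0.0914, 0.144 and 0.105). After centring, the peak 16307 bases upstream, with both levels above 3 counts, had a log2 fold change of -1.56. The call of the strongest peak was kept.

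The upstream cluster contrasted with the promoter of the same gene. The promoter peaks of Slc12a2, 137 and 508 bases upstream of a start, were not called. Their log2 fold changes by the authors' deposited table were 0.19 (SE 0.38) and -0.11 (SE 0.49). The 4 peaks 85910 to 154820 bases downstream of the start ran from -0.88 to 0.91 in log2 fold change, none called. The remaining 2 upstream peaks were too weak to receive an adjusted p. Elsewhere in the cation-chloride family, Slc12a7 had a lower peak, at levels of 8.03 against 0.21 counts.

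Slc9a9, an endosomal sodium-proton exchanger, was the gene with calls in both directions. Its promoter peak, 567 bases into the gene, was higher, with 6.38 counts in DMSO and 20.6 in dTAG13. The authors' deposited table gives it 1.69 on the log2 scale (SE 0.54, adjusted p = 0.0374). A peak 442870 bases farther along was lower, with 17.7 and 3.8 counts (log2 fold change -2.22, SE 0.70, adjusted p = 0.0363 from the authors' deposited table). In the authors' deposited values that call was lost with the median of all peaks as 0 (log2 fold change then -2.04, adjusted p = 0.0559) and with the GC centring (-1.60, adjusted p = 0.159). The other higher peak of the ion class was in Slc4a7, a sodium-bicarbonate cotransporter, 20133 bases from a start. Its levels were 5.08 in DMSO and 22.5 in dTAG13, or 2.15 on the log2 scale (SE 0.54, adjusted p = 0.00578 from the authors' deposited table). This was the only called solute carrier peak of which over 50% is repeat sequence by the genome's soft masking.

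Mitochondrial carriers had 4 lower and no higher peaks among 108 tested, with 39 genes and a median log2 fold change of -0.20. The Slc25a12 peak at chr2:71290141-71290380 lay in an intron, 77488 bases from the nearest start. Its implied levels were 23.5 counts in DMSO and 0.418 in dTAG13. It was at least 7.83-fold lower (log2 fold change -5.81, SE 1.26, adjusted p = 0.000948 from the authors' deposited table). A further Slc25a12 peak, 6940 bases from a start, had 19.6 counts in DMSO and 1.53 in dTAG13, at least 6.53-fold lower (adjusted p = 0.00289 from the authors' deposited table). Both windows printed above hold the OTX consensus, at 49 and 95 bases from the midpoint. The Slc25a12 promoter peak had a log2 fold change of -0.06 (SE 0.45) in the authors' deposited table and was not called. The promoter peak of Slc25a25, a calcium-dependent ATP-magnesium/phosphate carrier, was lower, with 15.7 counts in DMSO and 1.5 in dTAG13. The Slc25a10 peak with 3 consensus matches had 10.7 and 0.417 counts, at least 3.58-fold lower (adjusted p = 0.0188 from the authors' deposited table). Slc25a25 was likewise named after its values were seen.

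Sugar transporters had 4 lower and no higher peaks among 85. Slc2a3 encodes GLUT3, a high-affinity glucose transporter of early embryos and neurons, and had 13 peaks. Its called peaks lay 7704 bases apart, upstream of the gene. At 22585 bases upstream the levels were 31 counts in DMSO and 9.21 in dTAG13 (log2 fold change -1.75, SE 0.45, adjusted p = 0.00808 from the authors' deposited table). At 30289 bases upstream they were 62.3 and 28.9 (log2 fold change -1.11, SE 0.29, adjusted p = 0.00812 from the authors' deposited table). The second of these calls was lost under the GC centring of the authors' deposited values (log2 fold change then -0.66, adjusted p = 0.163). Both regions were on the peak lists of both groups. The Slc2a3 promoter peak had 24.5 counts in DMSO and 23.7 in dTAG13, not called. Slc45a3 had a lower promoter peak, 738 bases into the gene, with 31.5 and 8.35 counts (log2 fold change -1.92, SE 0.47, adjusted p = 0.00406 from the authors' deposited table). The remaining call of the class was a peak of Slc2a10 (GLUT10), named after its values were seen, with 14.3 and 0.784 counts.

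Transporters of amino acids and peptides, the class with most genes (57), had 9 lower and 2 higher peaks among 199. The 9 lower peaks belonged to 9 different genes. The Slc38a8 peak, assigned to a neutral amino acid transporter, had 18.3 counts in DMSO and 1.94 in dTAG13, at least 6.1-fold lower (adjusted p = 0.00475 from the authors' deposited table). Slc36a1 and Slc36a3, neighbouring genes of proton-coupled amino acid transporters, each had a lower peak, 68204 bases apart. Both were weak, with 5.26 and 5.38 counts in DMSO and about 0.21 in dTAG13. They were at least 1.75-fold and 1.79-fold lower, and their choice followed their values.

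Slc15a1 was the only solute carrier gene with 2 higher peaks, and 7 of its 8 peaks had a positive log2 fold change. The intronic peak printed above had 0.147 counts in DMSO and 10.4 in dTAG13, at least 3.45-fold higher. Its log2 fold change of 6.14 (SE 1.39, adjusted p = 0.00172 from the authors' deposited table) rests on a DMSO level near 0, so its size is not ranked. The other, 53923 bases downstream of the start, had 2.76 and 14.3 counts, at least 4.77-fold higher (adjusted p = 0.0282 from the authors' deposited table). The peak nearest the start, 1373 bases upstream, had a log2 fold change of 0.76 (SE 0.46) in the authors' deposited table and was not called.

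**Figure D3:**
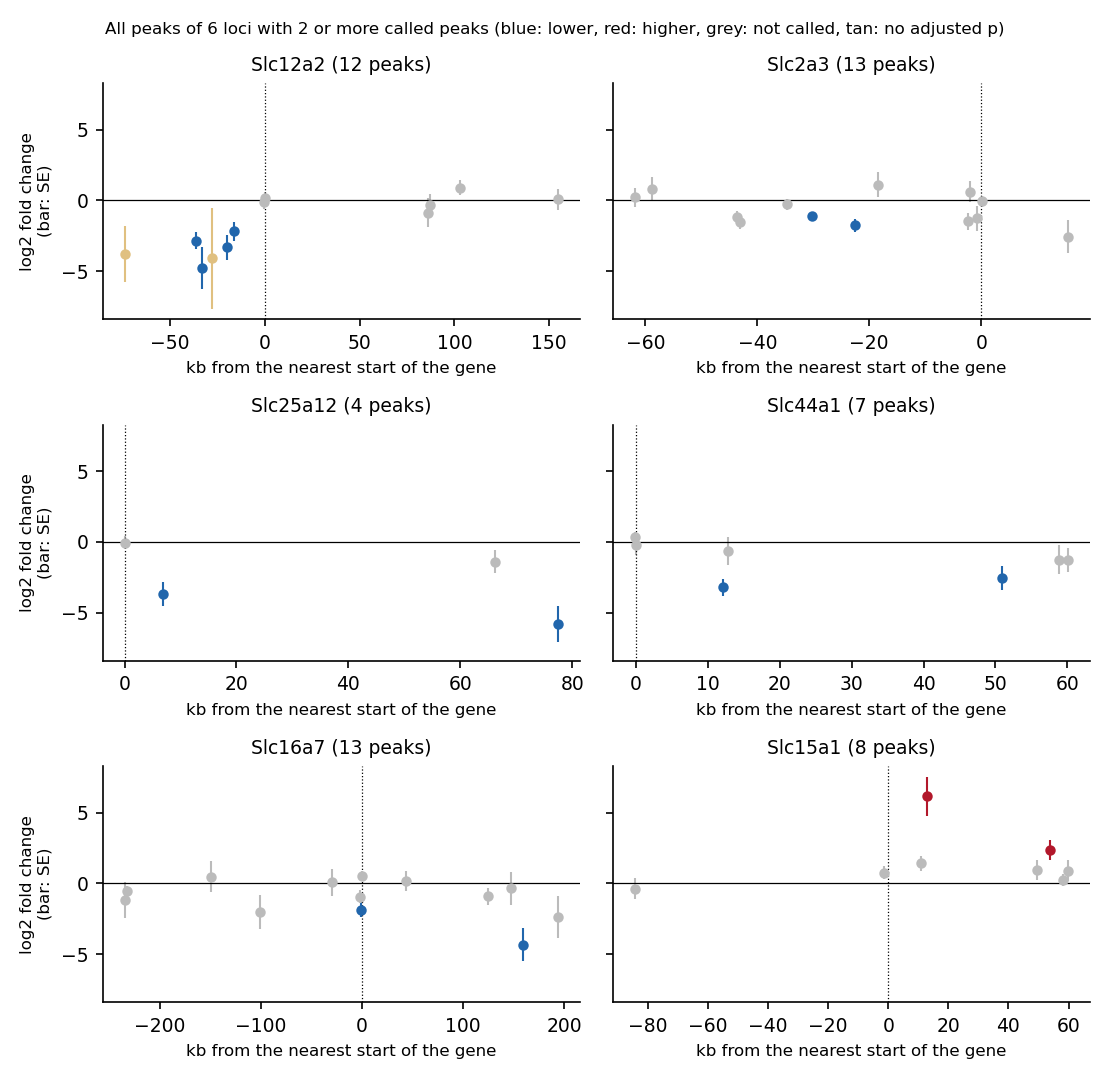
Log2 fold change of dTAG13 over DMSO with its SE for every peak assigned to 6 solute carrier genes with 2 or more calls in 1 direction, plotted by distance in kb from the nearest start of the gene. Called peaks of Slc12a2, Slc2a3, Slc25a12, Slc44a1 and Slc15a1 lie 6940 bases or farther from a start, and those of Slc16a7 lie 1205 bases upstream and 159786 bases downstream of a start.

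Transporters of vitamins, nucleosides, lipids and other solutes had 7 lower peaks and 1 higher among 108. Slc44a1 encodes a choline transporter. Its peak 12094 bases from a start had 28.5 counts in DMSO and 3.1 in dTAG13 (log2 fold change -3.20, SE 0.62, adjusted p = 0.000146 from the authors' deposited table). A Slc44a1 peak 50845 bases from a start had 13.3 and 2.29 counts, at least 4.45-fold lower before its SE is counted. The authors' deposited table gives it -2.54 on the log2 scale (SE 0.82, adjusted p = 0.0415). From the authors' deposited values, this second call was lost with the median of all peaks as 0 (log2 fold change then -2.36, adjusted p = 0.0589) and with the GC centring (-1.63, adjusted p = 0.238). Its relatives Slc44a2 and Slc44a3, named after their values were seen, had 1 weak lower peak each, so family 44 had 4 lower peaks of 26 over 5 genes. The vitamin C transporter genes (family 23, 7 peaks) had 1 lower and 1 higher peak, and the other 5 were not called. The Slc23a1 peak 2953 bases upstream was at least 5.81-fold lower, with 17.4 and 1.59 counts (adjusted p = 0.00552 from the authors' deposited table). The Slc23a2 peak 22484 bases upstream was at least 3.07-fold higher, with 0.553 and 9.21 counts (adjusted p = 0.0309 from the authors' deposited table). The Slc27a3 peak, at a fatty acid transport and acyl-CoA synthetase family gene, had 20.9 and 2.39 counts, at least 6.95-fold lower (adjusted p = 0.00274 from the authors' deposited table).

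Monocarboxylate and organic ion transporters had 4 lower peaks and 1 higher among 96. Slc16a7 encodes the monocarboxylate transporter MCT2, a carrier of lactate and pyruvate. Of its 13 peaks, that 1205 bases upstream of a start had 28.5 counts in DMSO and 7.87 in dTAG13 (log2 fold change -1.86, SE 0.52, adjusted p = 0.0152 from the authors' deposited table). After GC centring of the authors' deposited values this call was lost (log2 fold change then -0.95, adjusted p = 0.293). A peak 159786 bases downstream of the start had 15.1 and 0.763 counts, at least 5.04-fold lower (adjusted p = 0.0118 from the authors' deposited table).

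Metal transporters had 2 higher peaks and 1 lower among 69 tested, too few calls to read a direction beside the 1.47% and 3.79% of all peaks. Slc40a1 had a higher peak 412 bases upstream of its start, with 5.54 counts in DMSO and 19.2 in dTAG13 (log2 fold change 1.79, SE 0.54, adjusted p = 0.0265 from the authors' deposited table). The main Slc40a1 promoter peak, 53 bases upstream, had 27.2 and 37.7 counts and was not called (log2 fold change 0.47, SE 0.32 in the authors' deposited table). The peak assigned to the zinc importer Slc39a10 had 20.1 and 46.4 counts (log2 fold change 1.21, SE 0.33, adjusted p = 0.0118 from the authors' deposited table). The authors annotate it as a promoter, although it lies 31478 bases from the nearest start of Slc39a10 in GENCODE. The lower peak, at the copper transporter gene Slc31a2 (named after its values were seen), showed the smallest change of any call, with 72 and 42.9 counts.

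No peak of the nucleotide sugar class, which holds the 25 genes of family 35, was called, of 62 tested (5.26% of all peaks were called). The median log2 fold change of this class was 0.10. This and the metal class (-0.12) were the classes whose median lay above that of all peaks (-0.18). The vesicular class had 1 call, an exonic peak of Slc17a9, which loads ATP into vesicles. Its levels were 27.2 counts in DMSO and 3.83 in dTAG13 (log2 fold change -2.82, SE 0.59, adjusted p = 0.000568 from the authors' deposited table). The 6 genes that are not transporters had 2 lower peaks of 15. Slc9a3r1, which encodes a scaffold protein beneath the apical membrane of epithelia, had 34.2 and 5.41 counts in the first intron (log2 fold change -2.66, SE 0.51, adjusted p = 0.00012 from the authors' deposited table). With these genes left out, 44 lower and 8 higher peaks remained.

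**Figure D4:**
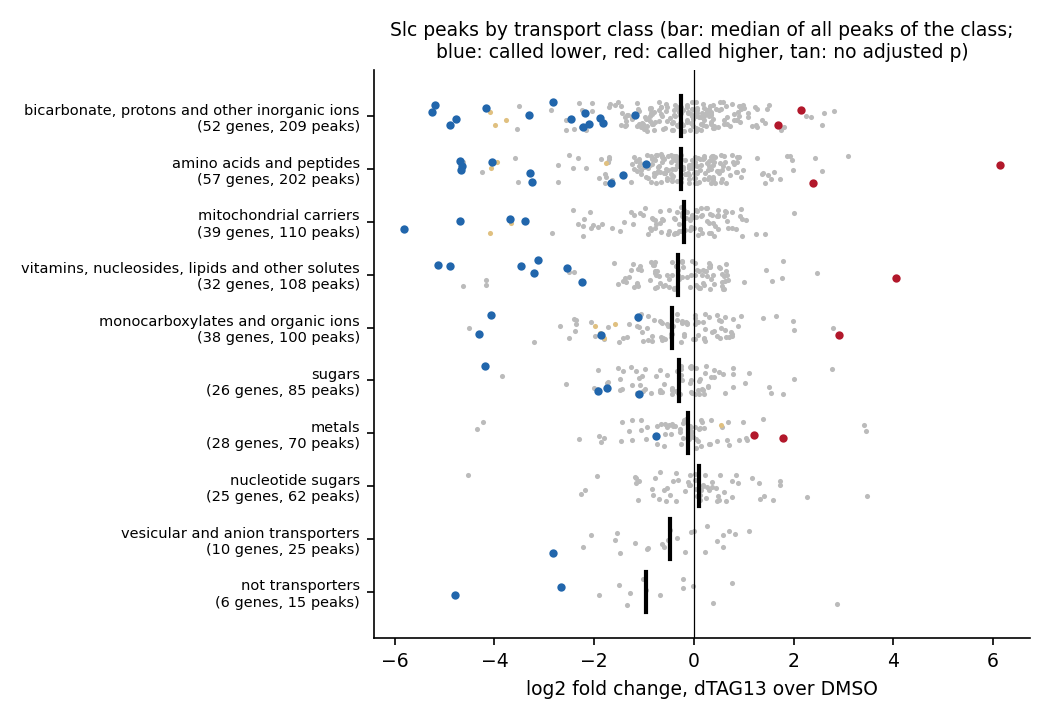
Log2 fold change of dTAG13 over DMSO for each solute carrier peak, 1 point per peak, grouped by transport class, with the class median as a black bar. Blue points are called lower, red points called higher and tan points have no adjusted p. Lower calls appear in 9 of the 10 classes, with none in the nucleotide sugar class.

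Called peaks lay mostly away from promoters. The midpoint was within 1000 bases of a start site in 351 solute carrier peaks (35.6%, against 28.9% of all peaks). Of these promoter peaks 5 were lower (1.42%, 0.61 to 3.29, beside 0.893% of all promoter peaks). Those called higher numbered 2 (0.57%, beside 1.19% of all promoter peaks). Of the 622 tested peaks farther away, 41 were lower (6.59%, 4.9 to 8.82, beside 5% of all such peaks). Here 6 were higher (0.965%, beside 1.59% of all such peaks). The 5 lower promoter peaks are those of Slc45a3, Slc25a25, Slc24a2, Slc44a2 and Slc1a2, and the 2 higher ones those of Slc9a9 and Slc40a1. The lower peaks had a median distance of 11895 bases from a start of their own gene, and the uncalled peaks 6517 bases.

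The main promoter peaks of 16 genes with well-known roles were not called. Calls were rare at promoters in general, with 0.893% lower and 1.19% higher over all promoter peaks of the table. The 16 genes are therefore too few to differ visibly from other promoters. These 16 include the glucose transporter Slc2a1 and the amino acid transport genes Slc1a5, Slc7a5, Slc3a2 and Slc38a2. They also include the lactate carriers Slc16a1 and Slc16a3 and the ADP/ATP carriers Slc25a4 and Slc25a5. On the log2 scale their fold changes, by the authors' deposited table, ran from -0.84 (Slc7a11, SE 0.93) to 0.47 (Slc40a1, SE 0.32). The Slc2a1 promoter had 71.2 counts in DMSO and 68.6 in dTAG13, and the 95% interval of its log2 fold change was -0.46 to 0.36. For Slc7a11, the cystine importer, with 5.51 and 3.07 counts, the interval was -2.67 to 0.98, which includes changes of several fold. Slc7a5, the large neutral amino acid transporter, did have a lower peak 9035 bases into the gene (47.2 and 24.4 counts, named after its values were seen).

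The 3 strongest solute carrier peaks were not called either. Of all peaks of the table with 40 counts or more, 1.07% were lower and 3.23% higher. Per 100 bases, the peak of Slc25a42, a mitochondrial coenzyme A carrier, had 20.9 normalized counts, that of Slc27a1, a fatty acid transport protein, 23.8, and that of the zinc transporter Slc39a3 19.3. By the authors' deposited table their fold changes were, on the log2 scale, -0.01 (SE 0.16), 0.16 (SE 0.17) and -0.07 (SE 0.18).

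The OTX consensus GGATTA was searched on both strands within 100 bases of each midpoint. It was present in 17 of the 46 lower solute carrier peaks (37%, 24.5 to 51.4), in 0 of the 8 higher peaks, an interval that reaches 32.4%, and in 74 of the 919 uncalled peaks (8.05%). Among all peaks of the table the shares were 34.1%, 1.28% and 7.68%, and 8.81% of all peaks held a match. The 20 matches in the lower peaks lay a median of 49 bases from the midpoint, 11 of them within 50 bases. The reversed letters ATTAGG, of the same base composition, were found in 10 of the 46 lower peaks (21.7%) and in 5.01% of uncalled ones, beside 16% and 6.64% over the table. The 2 words can overlap, as GGATTAGG, and 5 of these 10 peaks also held GGATTA, 2 of them in that overlapping form. Where GGATTA was absent, the reversed word was found in 5 of 29 lower (17.2%) and 36 of 845 uncalled peaks (4.26%), so it too was more frequent in the lower peaks. A GATA consensus, AGATAA, was found in 17 of the 46 (37%) and in 14.5% of uncalled ones, beside 30.1% of all lower and 14.9% of all uncalled peaks of the table. The TEAD consensus GGAATG occurred in 2 of 46 lower, 2 of 8 higher and 10.6% of uncalled peaks, beside 9.42%, 22.7% and 11.5% over the table. A match is a description of the sequence, not evidence of binding.

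Beyond 1000 bases from a start, the consensus also divided the fold changes. Of 70 tested solute carrier peaks with the consensus, 15 were lower (21.4%, 13.4 to 32.4), with a median log2 fold change of -1.24 over the 76 such peaks. Of 552 without it, 26 were lower (4.71%, 3.23 to 6.81), with a median of -0.36. Over all peaks of the table beyond 1000 bases the shares were 16.3% and 3.66%, and the medians were -1.49 and -0.28. Other peaks with the consensus did not pass the threshold, such as the Slc1a3 promoter peak named above.

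**Figure D5:**
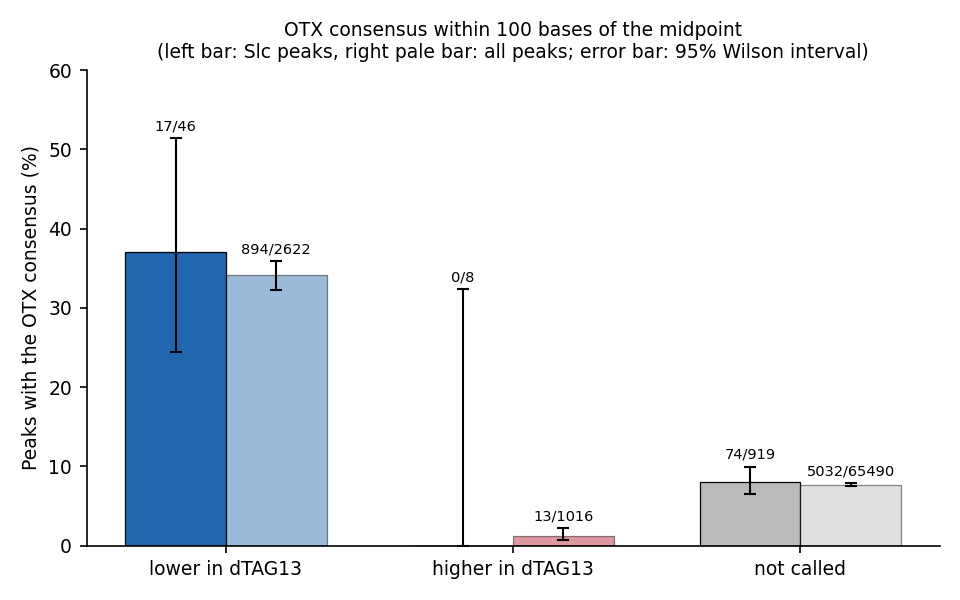
Percent of peaks with the OTX consensus within 100 bases of the midpoint, for solute carrier peaks (dark bars) and all peaks of the table (pale bars) that were lower, higher or not called, with 95% Wilson intervals. The share was 37% in lower and 8.05% in uncalled solute carrier peaks, close to the 34.1% and 7.68% of all peaks, and 0 of 8 in higher ones.

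The peak lists that the authors called from the pooled libraries of each group gave 489 solute carrier peaks in both conditions (49.6%), 396 on the DMSO list alone (40.2%) and 101 on the dTAG13 list alone (10.2%). For all peaks the shares were 48.2%, 40.1% and 11.8%. Of the 46 lower peaks 39 were on the DMSO list alone and 7 on both lists. Of the 8 higher peaks 6 were on the dTAG13 list alone. Over the whole table, 2279 of 2622 lower peaks were on the DMSO list alone. The dTAG13 list alone held 584 of 1016 higher peaks. The lists come from the same reads as the fold changes and are no separate evidence. Peaks on a single list were short, with median lengths of 99 bases (DMSO) and 81 bases (dTAG13), against 195 bases for those on both.

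The authors' deposited table also marks genes as differentially expressed, down or up, from a comparison that the sources used here do not describe. Of 17 solute carrier genes marked down, 10 had a lower peak (58.8%, 36 to 78.4), among them Slc12a2, Slc2a3, Slc44a1, Slc17a9 and Slc9a3r1. Of 288 unmarked genes, 29 did (10.1%, 7.1 to 14.1). Genes marked down also had more peaks, 5.24 per gene against 3.01. Per peak, the lower share was 16.9% in genes marked down and 3.58% in unmarked ones. Over all genes of the table the same shares were 34.9% and 7.94% of genes, and 9.51% and 3.58% of peaks. Of 8 solute carrier genes marked up, 0 had a lower peak and 1, Slc4a7, had a higher peak. Over all genes marked up, 10.5% had a lower and 9.79% a higher peak. Slc2a1 was marked down, and its promoter peak was not called.

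Other membrane transport genes, from lists of ABC transporters, pumps, aquaporins, SLCO transporters and carrier partners, had 303 peaks at 104 genes. Of the 293 tested, 6 were lower (2.05%, 0.942 to 4.39) and 5 were higher (1.71%, 0.731 to 3.93), with a median log2 fold change of -0.19. The 61 peaks of the vacuolar proton pump subunits included no call, and the aquaporins had 1, a higher peak of Aqp4. The difference between these shares and those of the solute carriers was not tested.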

How the data were processed

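ATAC-seq was analysed from the authors' deposited table of peaks and their peak list per group (build mm10). Per the submitters' processing notes, fastp, Bowtie2, MACS2, featureCounts, HOMER 4.11 and ChIPseeker were used. Settings are not given in the sources used here, nor is any shift of read ends or removal of duplicates. The deposited signal is a mean normalized read count over the 6 libraries, per the file headers. The log2 fold change, its SE, the score (fold change over SE) and the p-value with its adjusted value were used as the authors deposited them. No test over libraries could be refitted, so the authors' calls at an adjusted p under 0.05 were counted, adjusted over 69128 peaks.

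Implied group levels were computed from mean and fold change. Starts came from GENCODE M21, sequences and soft masking from the mm10 reference assembly. An intron or exon is that of the transcript the authors name, which may belong to another gene. The nearest GENCODE start was that of the assigned gene for 786 of 986 peaks. Named peaks are the 12 called with the smallest p in each direction, the first of each class, genes with 2 or more calls, the 3 strongest, and promoters of 16 listed genes. Any other peak was named after its values were seen. Some called peaks are counted but not reported here one by one. Members, lists and rules were chosen with earlier results of these data known. Alternatives covered thresholds, weak peaks, zero points, gene assignment and motif windows. Code was tested on simulated data (Python 3.11.15, numpy 2.4.6, pandas 2.3.3, scipy 1.17.1, pysam 0.24.0).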

Additional observations from a re-analysis of the deposited data

How the results depend on the processing

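No paired analysis was possible because the table holds no values per library, and for the same reason no library could be left out. At an adjusted p under 0.01 there were 15 lower peaks, 2 higher peaks and 15 genes with a call, and at 0.1 there were 20 higher peaks and 68 genes. With peaks of at least 10 mean normalized counts, 25 were lower and 4 higher, in 25 genes, and 44 were on the DMSO list alone. With the median of all peaks as 0, 18 were higher. GC centring gave 26 lower and 16 higher. It kept 34 of the 54 main calls, and 7 of the 29 calls named by rule were lost. Calls named after their values were seen were not followed one by one under these settings. Assigning peaks to the nearest GENCODE start left 849 solute carrier peaks, 37 lower and 6 higher. The promoter share was 29.6% within 500 bases and 47.7% within 5000 bases. The share of lower peaks with the OTX consensus was 17.4% within 50 bases (4.9% of uncalled peaks), 19.6% for TAATCCG or TAATCCC (4.03%) and 21.7% for the reversed ATTAGG (5.01%). The cause of these shifts was not tested. Weak peaks limit the data: the median SE of a solute carrier peak was 0.70 on the log2 scale.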

Other observations

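By family, the cation-chloride cotransporters (family 12) had the most lower peaks, 6 of 41 over 9 genes, with a median log2 fold change of -0.11. Of these 6, 4 lie within 19985 bases of each other upstream of the single gene Slc12a2, and 3 of those 4 calls were lost under GC centring. Over all peaks 3.79% were called lower and 1.47% higher. Family 28, the concentrative nucleoside transporters, had the lowest median of the families with over 10 peaks, -1.13 over 13 peaks, with 1 lower peak, at Slc28a3. Family 15, the proton-coupled peptide transporters, had 10 peaks with a median of 0.83, 1 lower and 2 higher. The single gene Slc15a1 held 8 of these 10 peaks and both higher ones. The families with most peaks but no call were 35 (62 peaks, the nucleotide sugar class) and 5 (25 peaks, sodium-glucose and related cotransporters). These families were singled out after their values were seen, and a peak's fold change is that of the authors' deposited table.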
